A study of Mus musculus with 12 samples.

Results

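The MHC class II genes described here are H2-Aa, H2-Ab1, H2-Eb1, Cd74, H2-DMa, H2-DMb1 and Ciita, 7 genes of which 6 belong to the 12393 with a probe set of their own on the array. They were found by the gene symbol that the array platform gives to each probe set, and 12 of the 22626 probe sets on the array carry one of these symbols. Of those 12 probe sets, 10 list a single member gene. The other 2 list H2-DMb1 together with its neighbouring copy H2-DMb2, so H2-DMb1 has no measurement of its own here and is given as the signal of both copies. Transcripts of lung and liver tissue from female nude NCR mice were profiled with Affymetrix arrays on day 7. All mice shared that strain and sex, and nude mice lack a functional thymus and are poor in mature T cells. Mice described as tumor-bearing had been given an orthotopic graft of the mouse mammary carcinoma line 4T1, and control mice an injection of phosphate-buffered saline. With 3 arrays for each organ of either kind of mouse there were 4 groups and 12 arrays, and the organs of tumor-bearing mice were labelled pre-metastatic. Ages were not given in the sources used here.

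MHC class II molecules are pairs of an alpha and a beta chain that present peptides from engulfed proteins to CD4+ T cells, and they are made mainly by dendritic cells, B cells and macrophages. The invariant chain, encoded by Cd74, holds the new pair together and steers it into endosomes, where proteases cut the invariant chain down and the H2-DM heterodimer exchanges its last fragment for a peptide. Transcription of all these genes depends on the coactivator CIITA, encoded by Ciita, which docks onto proteins bound at a conserved set of promoter elements called the X, X2 and Y boxes. In lung and liver the class II genes are known from resident macrophages and dendritic cells, and in mouse lung also from alveolar type II cells.

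The promoters below are shown because this element is known from the class II genes; letters of its boxes were found in the windows of 3 members. RefSeq start sites on build GRCm38.p6 gave windows for 4 of the 7 members. The 150 bases before the start site are printed 5′ to 3′ on the gene's strand, with the matched box letters in capitals.
H2-Eb1, chr17:34305717-34305866, plus strand: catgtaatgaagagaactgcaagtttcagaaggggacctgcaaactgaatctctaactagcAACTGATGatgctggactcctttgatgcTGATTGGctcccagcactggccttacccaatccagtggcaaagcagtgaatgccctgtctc
H2-Aa, chr17:34287824-34287973, minus strand: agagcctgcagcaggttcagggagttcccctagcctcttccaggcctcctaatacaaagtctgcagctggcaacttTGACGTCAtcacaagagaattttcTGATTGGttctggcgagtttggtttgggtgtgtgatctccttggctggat
H2-DMb1, chr17:34153041-34153190, plus strand: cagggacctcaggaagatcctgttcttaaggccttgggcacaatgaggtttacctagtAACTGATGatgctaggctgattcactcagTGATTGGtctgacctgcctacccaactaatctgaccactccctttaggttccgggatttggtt

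The letters searched on both strands were AACNGATG for the X box core, TGACGTCA for an X2 box of the kind that binds CREB, and TGATTGG for the Y box core; none of them overlap. They were chosen from textbook knowledge of the elements and with these windows already read. In H2-Eb1 the X box letters began 89 bases before the start site and the Y box letters 61 bases before it. H2-DMb1 had nearly the same layout, with the X box letters from 92 and the Y box letters from 63 bases before the start site. In H2-Aa the X2 letters began at 74 and the Y box letters at 50 bases before the start site. Of 32851 RefSeq promoter windows of 300 bases, 2.32% held the X box letters, 1.79% the X2 letters and 7.82% the Y box letters. A Y box together with an X or X2 box occurred in 109 windows, or 0.332%. The 2 windows of H2-DMa held none of these letters. A match describes the sequence only, and these arrays did not measure binding at any promoter.

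All values are log2 GCRMA values, a scale on which a difference of 1 is a doubling, and the number of arrays limits their precision. Within a group, arrays correlated at 0.989 to 0.996. The labelled organs matched their defining markers: the surfactant gene Sftpc lay between 15.70 and 15.86 in lung and between 2.24 and 6.54 in liver, and the albumin gene Alb lay between 16.05 and 16.20 in liver. The lung arrays of tumor-bearing replicate 1 and control replicate 3 stood apart by hepatocyte transcripts, with a mean of 8 hepatocyte genes of 9.50 and 10.60 against 4.34 to 6.04 on the other lung arrays. Lung values are therefore also given without these arrays where the call depends on them. P-values measure only the spread between the arrays of a group, since the labels do not tie a replicate number to a mouse.

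In the lungs of tumor-bearing mice H2-Eb1 was higher than in control lungs, 2.09-fold as measured, and the other members had higher means without passing the test. In liver no member passed it. The test was limma on all genes, with a Benjamini-Hochberg adjusted p under 0.05. In lung 1 of 6 members tested was called, where 58 of 7907 genes tested (0.734%) were called, 49 higher and 9 lower. In liver 0 of 6 members tested were called, where 144 of 7712 genes (1.87%) were called, 49 higher and 95 lower. An unadjusted p under 0.05 was reached by 4 of the 6 members in lung (1042 of 7907 genes) and by 0 of the 6 in liver (1997 of 7712 genes). These counts of calls were not stable: leaving out 1 array took the lung calls over all genes from 58 to between 0 and 14, and the liver calls from 144 to between 0 and 1. With so few members, 1 call is a result about H2-Eb1 and not about the set. Bulk tissue was measured, so fewer or more cells of a type and less or more RNA per cell cannot be told apart in any of these values.

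**Figure D1:**
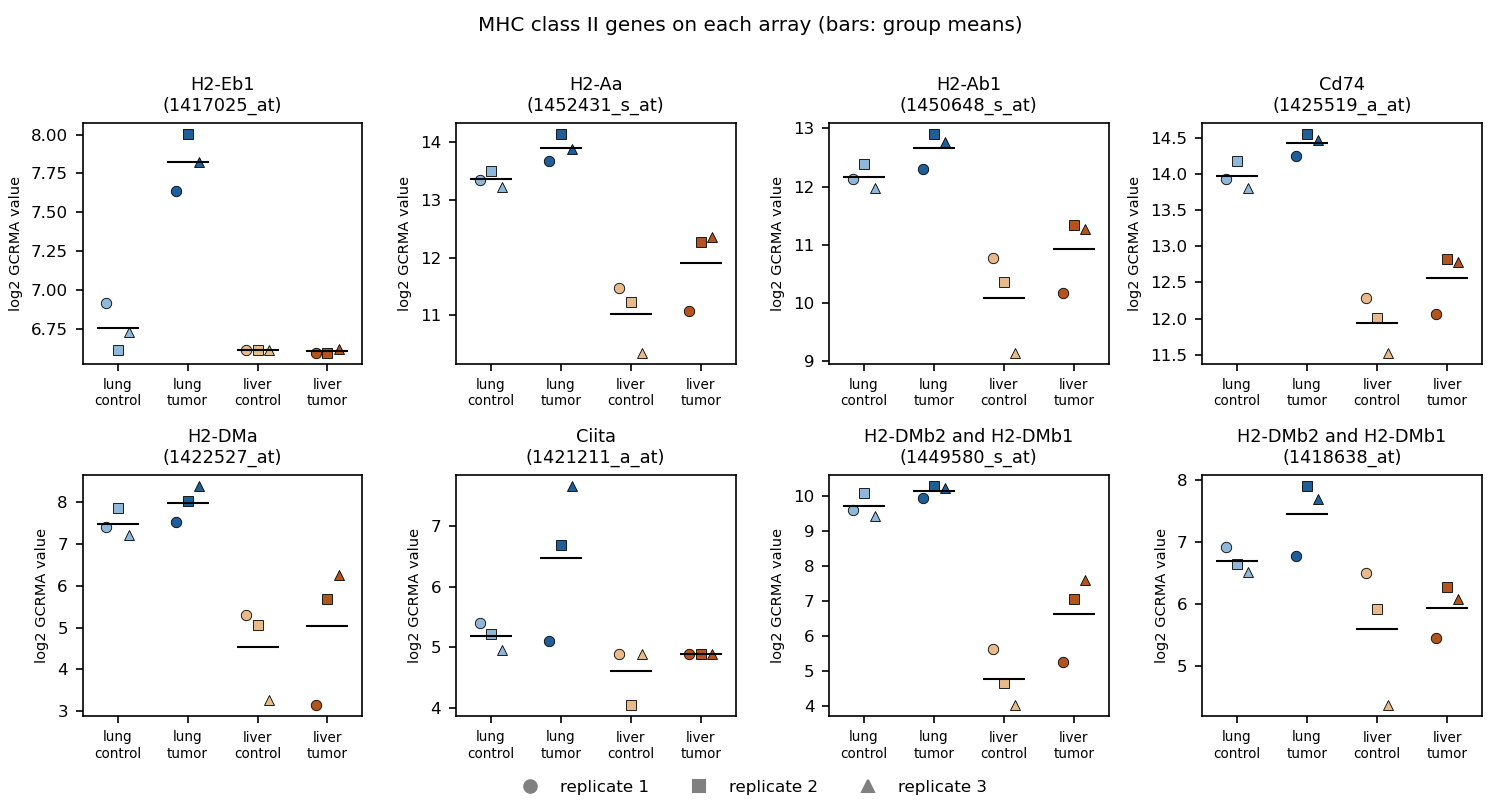
Log2 GCRMA value of MHC class II genes (vertical axis, a different range in each panel) on each of the 3 arrays of the 4 groups (horizontal axis), with 1 probe set of each gene and both probe sets shared by H2-DMb1 and H2-DMb2; symbols mark the replicate number and bars the group means. H2-Eb1 separated the lung groups and stayed between 6.60 and 6.62 on every liver array, while H2-Aa, H2-Ab1 and Cd74 lay higher in lung than in liver and overlapped between tumor-bearing and control liver.

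H2-Eb1 encodes the beta chain of the E molecule. Its probe set 1417025_at read 7.64, 8.003 and 7.83 in the lungs of tumor-bearing replicates 1, 2 and 3, and 6.92, 6.61 and 6.73 in control lungs 1, 2 and 3. Every tumor-bearing array lay above every control array, with the lowest tumor-bearing array above the highest control array. The means were 7.82 ± 0.18 and 6.75 ± 0.15 (SD, n = 3 each), a difference of 1.07 with an SE of 0.135 and a 95% confidence interval of 0.74 to 1.40 (limma adjusted p = 0.0391). In liver the same probe set read 6.60, 6.60 and 6.62 in tumor-bearing mice and 6.61, 6.61 and 6.61 in controls. This is a flat line at 1 repeated value: all 6 liver arrays lay within 0.05 of each other, which 58 of the 7712 genes tested in liver did (0.752%). Control lung 2, at 6.61, lay at that value too, so the measured fold in lung may understate the change. Values repeated in this way have no order, and no liver response can be read from this probe set. The fitted liver difference was -0.01 with an interval of -0.16 to 0.14 (limma adjusted p = 0.941).

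The call of H2-Eb1 in lung was near the threshold. It was lost when any 1 of the 6 lung arrays was left out, with a difference of 0.98 to 1.16 and limma adjusted p-values of 0.0804, 0.137 and 0.109 without tumor-bearing replicates 1, 2 and 3, and of 0.109, 0.142 and 0.168 without control replicates 1, 2 and 3. Leaving out the pair of lung arrays that stood apart by hepatocyte transcripts, the difference was 1.15, with a limma adjusted p of 0.326, and 0 of 7804 genes passed (736 with an unadjusted p under 0.05). The loss was thus shared with most or all genes called in lung. Tested with every probe set by itself, 1417025_at had a limma adjusted p of 0.0503, where 50 of 12296 probe sets passed.

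In the test of the difference between the organs 1 of the 6 members passed, H2-Eb1, where 131 of 8433 genes did (1.55%). Its lung difference exceeded its liver difference by 1.08, with an SE of 0.152 and an interval of 0.74 to 1.41 (limma interaction test, adjusted p = 0.0139). Every liver array lay at the repeated value, so this number restates the lung difference and does not show that the organs responded differently. The flat liver arrays also enter the spread of this test.

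H2-Aa and H2-Ab1 encode the alpha and beta chain of the A molecule. H2-Aa probe set 1452431_s_at read 13.68, 14.14 and 13.89 in tumor-bearing lungs 1, 2 and 3 and 13.34, 13.50 and 13.22 in control lungs 1, 2 and 3. The tumor-bearing arrays all lay above the control arrays, by a narrow margin between tumor-bearing replicate 1 and control replicate 2. The difference was 0.55 with an SE of 0.147 and an interval of 0.19 to 0.91 (limma adjusted p = 0.202). The other H2-Aa probe set, 1435290_x_at, read 11.66, 11.97 and 11.91 in tumor-bearing against 11.39, 11.55 and 11.47 in control lungs, also without overlap.

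H2-Ab1 probe set 1450648_s_at read 12.30, 12.90 and 12.76 in tumor-bearing lungs against 12.14, 12.38 and 11.97 in control lungs, where control replicate 2 lay above tumor-bearing replicate 1. Its difference was 0.49 with an SE of 0.193 and an interval of 0.02 to 0.96 (limma adjusted p = 0.365). The same overlap appeared on the other H2-Ab1 probe sets. On 1425477_x_at the tumor-bearing lungs read 12.27, 13.10 and 12.82 and the control lungs 12.07, 12.58 and 11.94. On 1451721_a_at they read 12.04, 12.83 and 12.41 against 11.75, 12.29 and 11.72. Differences of the 3 probe sets were close to each other, at 0.49, 0.53 and 0.51.

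In liver the A chain genes split the tumor-bearing mice. H2-Aa 1452431_s_at read 11.07, 12.28 and 12.36 in tumor-bearing livers 1, 2 and 3 and 11.47, 11.23 and 10.35 in control livers 1, 2 and 3. Tumor-bearing livers 2 and 3 lay above every control, and tumor-bearing liver 1 lay below control livers 1 and 2. The difference of 0.88 had an SE of 0.455 and an interval of -0.24 to 2.01 (limma adjusted p = 0.277). H2-Ab1 1450648_s_at had the same order of groups, with 10.18, 11.35 and 11.27 in tumor-bearing against 10.77, 10.36 and 9.15 in control livers. Its difference was 0.84 with an SE of 0.522 and an interval of -0.46 to 2.13 (limma adjusted p = 0.358). The remaining probe sets did likewise: 1435290_x_at of H2-Aa read 8.86, 10.16 and 10.24 against 9.51, 9.34 and 8.69. For H2-Ab1, 1425477_x_at read 9.56, 11.07 and 11.27 against 10.30, 9.85 and 9.31, and 1451721_a_at read 9.26, 10.96 and 11.16 against 10.12, 9.81 and 8.97.

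Cd74, the invariant chain gene, followed the A chains in both organs. Probe set 1425519_a_at read 14.24, 14.55 and 14.48 in tumor-bearing lungs against 13.93, 14.18 and 13.80 in control lungs. The groups did not overlap, and the difference was 0.46 with an SE of 0.140 and an interval of 0.11 to 0.80 (limma adjusted p = 0.253). In liver it read 12.06, 12.83 and 12.78 in tumor-bearing mice and 12.28, 12.01 and 11.53 in controls. Tumor-bearing liver 1 again lay among the controls, and the difference was 0.62 with an SE of 0.284 and an interval of -0.09 to 1.32 (limma adjusted p = 0.233).

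The peptide-editing genes encode the H2-DM heterodimer. H2-DMa, its alpha chain, read 7.53, 8.02 and 8.38 in tumor-bearing lungs against 7.40, 7.85 and 7.21 in control lungs on 1422527_at, with control replicate 2 above tumor-bearing replicate 1. The difference was 0.49 with an SE of 0.266 and an interval of -0.16 to 1.14 (limma adjusted p = 0.512). In liver H2-DMa spread widely, at 3.15, 5.68 and 6.25 in tumor-bearing mice and 5.31, 5.05 and 3.27 in controls. The lowest liver array was tumor-bearing replicate 1, and the difference of 0.48 had an SE of 0.967 and an interval of -1.92 to 2.88 (limma adjusted p = 0.777). Its sign turned without tumor-bearing liver 3 (-0.13) or without control liver 3 (-0.15), so no direction is given for H2-DMa in liver.

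The beta chain is seen through the probe sets shared by H2-DMb1 and H2-DMb2, whose signals cannot be told apart. Probe set 1449580_s_at read 9.93, 10.26 and 10.22 in tumor-bearing lungs against 9.58, 10.08 and 9.42 in control lungs, and 1418638_at read 6.78, 7.90 and 7.69 against 6.92, 6.64 and 6.52. In each, tumor-bearing replicate 1 lay below a control array. Both were fitted among all 12741 listed probe sets tested in lung. For 1449580_s_at the difference was 0.44 with an SE of 0.200 and an interval of -0.05 to 0.94 (limma adjusted p = 0.436). For 1418638_at it was 0.76 with an SE of 0.309 and an interval of 0.003 to 1.52 (limma adjusted p = 0.393). In liver 1449580_s_at read 5.24, 7.03 and 7.59 against 5.62, 4.64 and 4.02, and 1418638_at read 5.44, 6.27 and 6.08 against 6.51, 5.92 and 4.37. The liver differences were unequal. On the former it was 1.86 with an SE of 0.717 and an interval of 0.08 to 3.64 (limma adjusted p = 0.181). On the latter it was 0.33 with an SE of 0.579 and an interval of -1.10 to 1.77 (limma adjusted p = 0.748). Unadjusted limma p-values were 0.0430 for 1449580_s_at in liver and 0.0493 for 1418638_at in lung. An unadjusted p under 0.05 was reached by 3174 of 12420 listed probe sets in liver and 1616 of 12741 in lung.

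Ciita encodes the coactivator of the whole set. Probe set 1421211_a_at read 5.11, 6.68 and 7.65 in tumor-bearing lungs 1, 2 and 3 and 5.41, 5.21 and 4.95 in control lungs 1, 2 and 3. Tumor-bearing lungs 2 and 3 were the highest of the 6 and tumor-bearing lung 1 lay among the controls. The difference of 1.29 was larger than that of any other member in lung, but its SE was 0.620 and its interval -0.23 to 2.81 (limma adjusted p = 0.455). The other probe set, 1421210_at, had the same order, with 3.63, 4.87 and 5.76 in tumor-bearing against 4.22, 3.65 and 3.43 in control lungs. In liver 1421211_a_at read 4.89 on all tumor-bearing arrays and 4.89, 4.05 and 4.89 on the control arrays, another repeated value without order. The liver difference of 0.28 (limma adjusted p = 0.4996) rests on control liver 2 alone and was 0.00 without it. Probe set 1421210_at read 3.48, 2.75 and 3.48 in tumor-bearing against 2.92, 2.60 and 2.49 in control livers, below the filter value of 4, and was not tested there.

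**Figure D2:**
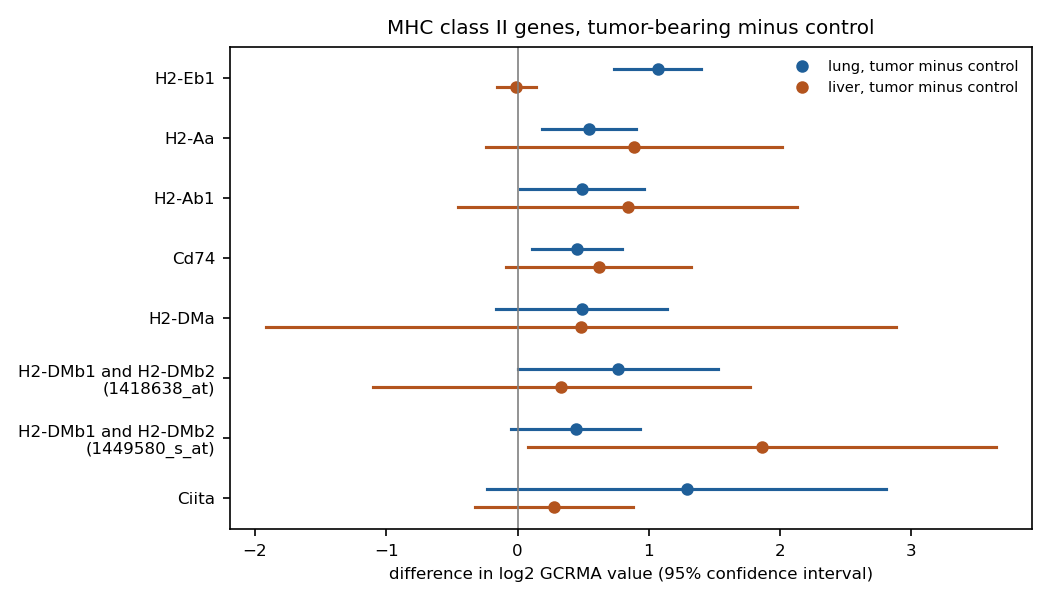
Difference of tumor-bearing minus control in log2 GCRMA value (horizontal axis) for each MHC class II gene and for the probe sets shared by H2-DMb1 and H2-DMb2 (vertical axis), in lung (blue) and liver (orange); points are limma estimates over 3 against 3 arrays and lines their 95% confidence intervals. The H2-Eb1 interval in lung, 0.74 to 1.40, stood clear of 0, and its liver interval, -0.16 to 0.14, was the narrowest of the plot; the H2-DMa liver interval, -1.92 to 2.88, was the widest.

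None of the other 5 members tested passed the interaction test. Lung minus liver response was -0.34 for H2-Aa with an interval of -1.47 to 0.79 (limma adjusted p = 0.779). For H2-Ab1 it was -0.35 with an interval of -1.66 to 0.97 (limma adjusted p = 0.808), and for Cd74 -0.16 with an interval of -0.91 to 0.58 (limma adjusted p = 0.848). Signs of the latter pair turned without control liver 3, to 0.12 for H2-Ab1 and 0.043 for Cd74. H2-DMa gave 0.00 with an interval of -2.37 to 2.38 (limma adjusted p = 1), and Ciita 1.01 with an interval of -0.60 to 2.61 (limma adjusted p = 0.511). The probe sets shared by H2-DMb1 and H2-DMb2 gave opposite signs, -1.42 on 1449580_s_at with an interval of -3.17 to 0.33 (limma adjusted p = 0.379) and 0.43 on 1418638_at with an interval of -1.12 to 1.98 (limma adjusted p = 0.791). These intervals are wide, and like responses in lung and liver were not shown.

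Across the 12 probe sets the arrays of a group were ordered much alike. In lung, all 12 had a higher mean in tumor-bearing mice, where 47% of all genes tested did. Tumor-bearing replicate 1 was the lowest of the tumor-bearing lungs on all 12, and tumor-bearing replicate 2 was the highest of the 6 lung arrays on 9 and replicate 3 on the other 3. Control replicate 3, rich in hepatocyte transcripts like tumor-bearing replicate 1, was the lowest of the 6 on 10. All tumor-bearing arrays lay above all control arrays on 4 of the 12, those of H2-Eb1, H2-Aa and Cd74, where 8.99% of all genes tested were so separated. Probe sets of 1 gene share their transcript, so the 12 are not independent.

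In liver, where H2-Eb1 has no order, all 11 other probe sets had a higher mean in tumor-bearing mice, against 39.7% of genes tested. Not all of these carry a direction. For H2-DMa the sign turned without tumor-bearing liver 3 or control liver 3. Ciita 1421211_a_at was higher only through control liver 2, since every other liver array read 4.89. Ciita 1421210_at lay below the filter value of 4 on every liver array and was not tested there, unlike the genes in that share. None of the 11 separated the groups without overlap, against 10.4% of genes tested that lay higher on all tumor-bearing arrays. Tumor-bearing livers 2 and 3 lay above every control liver on 8 of the 11. Tumor-bearing liver 1 lay below control liver 1 on 9. Control liver 1 was the highest control on 10 and control liver 3 the lowest control on 10. Over all genes tested in liver, 371 of 7712 (4.81%) had tumor-bearing replicates 2 and 3 above every control and replicate 1 below at least 1 control. The groups were given by the labels, and this order is a description of the arrays.

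**Figure D3:**
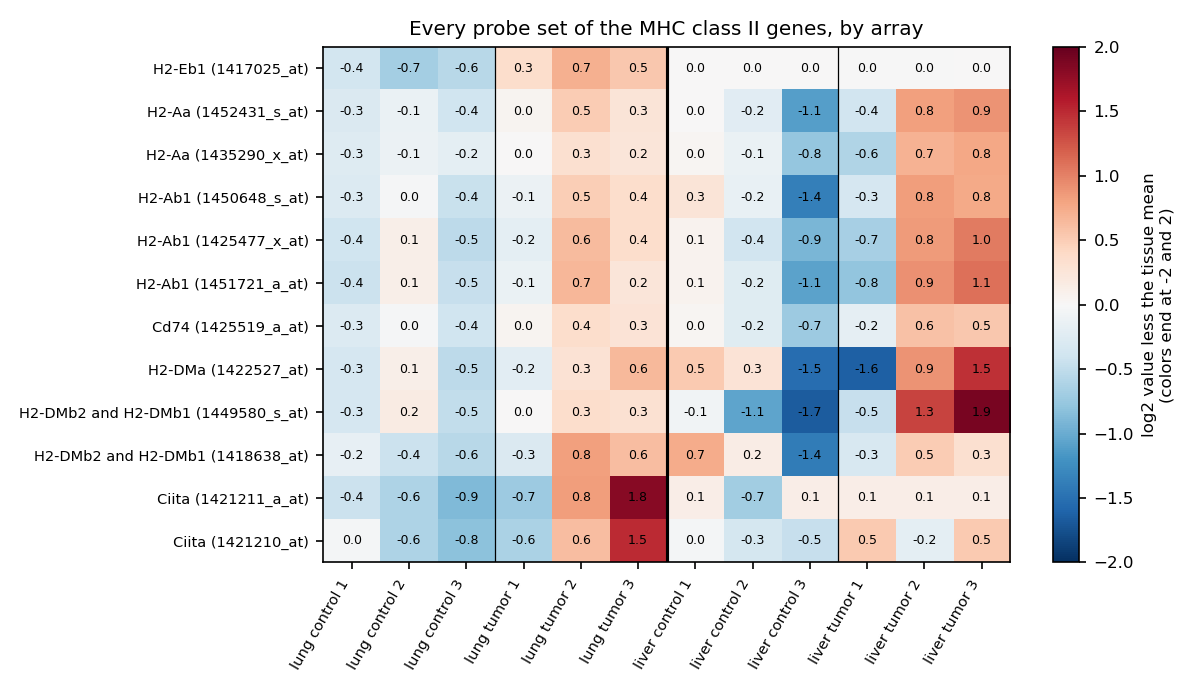
Log2 GCRMA value less the mean of its organ, in colors and printed to 1 decimal, for the 12 probe sets of the MHC class II genes (vertical axis) on the 12 arrays (horizontal axis); the thick line parts lung from liver and thin lines part control from tumor-bearing. Liver control 3 and liver tumor-bearing 1 were low on most rows, liver tumor-bearing 2 and 3 were high, and H2-Eb1 stayed at 0.0 across the liver.

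H2-Aa, H2-Ab1 and Cd74 varied together from array to array. Over the 12 arrays, each less the mean of its organ, Pearson's r was 0.97 between H2-Aa and H2-Ab1, 0.98 between H2-Aa and Cd74, and 0.97 between H2-Ab1 and Cd74. H2-DMa correlated with them at 0.82 to 0.87. H2-Eb1 correlated with H2-Aa at 0.37, with H2-Ab1 at 0.32 and with Cd74 at 0.43, and Ciita with the same genes at 0.34, 0.35 and 0.44. On the liver arrays H2-Eb1 deviated by only -0.014 to 0.014, while H2-Aa ran from -1.11 to 0.90. The coefficients of H2-Eb1 over both organs therefore do not show that it varied apart from the A chains in lung. There H2-Eb1 and H2-Aa were both highest in tumor-bearing replicate 2, then 3, then 1, with the controls below in differing orders. H2-Eb1 and Ciita, both at a repeated value in liver, correlated with each other at 0.70. These coefficients are descriptions of 12 arrays that share groups, organs and normalization.

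The genes most like the members were sought among 7188 genes tested in both organs, by Pearson's r over the 12 arrays, less organ means, to the mean of H2-Eb1, H2-Aa, H2-Ab1 and Cd74. Samhd1, a dNTP hydrolase that restricts viruses, had the highest r, 0.96. It read 11.09, 11.10 and 11.36 in tumor-bearing against 10.69, 10.69 and 10.56 in control lungs, and 7.14, 7.99 and 7.87 in tumor-bearing against 7.51, 7.23 and 6.64 in control livers. As for H2-Aa, tumor-bearing liver 1 lay below control livers 1 and 2. Cd52, a small surface glycoprotein of leukocytes, followed at 0.93, and Tnrc6b, a protein of microRNA-guided silencing, at 0.91. Gbp2, an interferon-induced guanylate-binding protein, and Psmb9, an interferon-induced proteasome subunit, both had an r of 0.88. Psmb9 read 9.72, 10.37 and 10.84 in tumor-bearing against 9.67, 9.43 and 9.23 in control lungs.

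Without a tumor, most members were higher in lung than in liver. Of the 6 members tested, 4 passed, all of them higher in lung, where 6705 of 8270 genes (81.1%) passed in either direction and 3768 (45.6%) passed as higher in lung. H2-DMa differed by 2.94, or 7.69-fold (limma adjusted p = 0.00321), and H2-Aa by 2.34, or 5.05-fold (limma adjusted p = 0.000499). H2-Ab1 differed by 2.07, or 4.20-fold (limma adjusted p = 0.00436), and Cd74 by 2.03, or 4.08-fold (limma adjusted p = 0.000212). Of the shared H2-DMb1 and H2-DMb2 probe sets, 1449580_s_at differed by 4.94 (limma adjusted p = 9.52e-05) and 1418638_at by 1.09 (limma adjusted p = 0.111). All control lungs lay above all control livers on each of the 11 probe sets other than that of H2-Eb1. How many of all genes were so separated was not counted, and most genes differed between the organs. The count therefore does not set the members apart from other genes. On Ciita 1421211_a_at the lowest control lung, 4.95, lay just above the repeated liver value of 4.89. Ciita 1421210_at was below the filter value of 4 in every control liver. The median of all genes moved with the scaling, at 0.18 as deposited, 0.03 after further quantile normalization and -0.30 after median centring, and the split of calls went from 3768 higher and 2937 lower to 2779 higher and 4126 lower with centring. The 4 members kept their calls under each scaling. H2-Eb1, at or near its repeated value in both control organs, gave 0.14 (limma adjusted p = 0.220). It moved with the median of all genes to -0.22 after quantile normalization and to -0.33 after centring (limma adjusted p = 0.0346), so no direction is given for it. Ciita differed by 0.58 (limma adjusted p = 0.0857), with control livers 1 and 3 at the repeated value and control liver 2 lower, at 4.05. Over the processing alternatives this difference ran from 0.075 to 0.84.

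Set in order within each probe set, the group means of H2-Aa, H2-Ab1 and Cd74 ran from tumor-bearing lung through control lung and tumor-bearing liver to control liver. H2-DMa had the same order of organs, with no direction given within liver. The step between the organs was clear of the spread, since the lowest control lung lay above the highest tumor-bearing liver in each: 13.22 against 12.36 for H2-Aa, 11.97 against 11.35 for H2-Ab1, 13.80 against 12.83 for Cd74 and 7.21 against 6.25 for H2-DMa. The steps within an organ did not pass the test for any of these 4 genes. How many of all genes had their organs so separated was not counted. For H2-Eb1, control lung (6.75), control liver (6.61) and tumor-bearing liver (6.60) were close together and tumor-bearing lung (7.82) lay above them.

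The other genes of the class II pathway gave no call in either organ. Of 29 further genes listed, among them E and O chains, subunits of the promoter-binding factors RFX and NF-Y, endosomal proteases and costimulatory receptors, 22 matched a probe set and 18 were tested. In lung 12 of 18 had a higher mean, with a median difference of 0.05, against -0.01 over all genes tested and 0.52 over the 6 members. In liver 13 of 18 did, with a median of 0.16, against -0.07 over all genes and 0.55 over the members. The largest positive value in lung was that of H2-DMb2 on a probe set of its own, 1419744_at, with 5.50, 6.94 and 6.29 in tumor-bearing against 5.0003, 5.24 and 5.0003 in control lungs, a difference of 1.16 (limma adjusted p = 0.253). Ctsd, the aspartyl protease cathepsin D, had the lowest, -0.21 (limma adjusted p = 0.711). In liver the extremes were subunits of the Y box and X box factors, Nfyb at 0.72 (limma adjusted p = 0.132) and Rfxap at -0.41 (limma adjusted p = 0.124).

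Upstream of Ciita, interferon gamma signalling genes did not pass either. Of 12 listed, 11 matched and 8 were tested. Over all genes tested, 47% had a higher mean in lung and 39.7% in liver, with medians of -0.01 and -0.07. In lung 6 of 8 had a higher mean, with a median of 0.21, from Spi1, the myeloid and B cell transcription factor PU.1, at 0.84 (limma adjusted p = 0.182) to the receptor gene Ifngr2 at -0.15 (limma adjusted p = 0.923). In liver all 8 had a higher mean, with a median of 0.34, from Irf2 at 0.63 (limma adjusted p = 0.135) to the kinase gene Jak2 at 0.12 (limma adjusted p = 0.402). Ifng itself read 2.04 on all 12 arrays, the lowest value of the data.

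MHC class I genes, which load peptides made by the proteasome for CD8+ T cells, also had no call. In lung 10 of the 13 tested had a higher mean, with a median of 0.15, and in liver 11 of 13 did, with a median of 0.21. Over all genes tested, 47% did in lung and 39.7% in liver, with medians of -0.01 and -0.07. The peptide transporter gene Tap1 was the highest in each organ, at 1.68 in lung (limma adjusted p = 0.409) and 1.53 in liver (limma adjusted p = 0.112). It read 6.61, 7.90 and 9.01 in tumor-bearing against 6.68, 6.73 and 5.06 in control lungs, so that, as for Ciita, tumor-bearing lung 1 lay among the controls. The lowest were Pdia3 in lung (-0.26, limma adjusted p = 0.346) and Psmb10 in liver (-0.15, limma adjusted p = 0.749). Tap1 and Psmb9 lie on chromosome 17 between H2-DMb1 and H2-Ab1: in RefSeq the order there is H2-DMa, H2-DMb2, H2-DMb1, Psmb9, Tap1, Psmb8, Tap2, H2-Ob, Gm20506, H2-Ab1, H2-Aa and H2-Eb1. Cd74 and Ciita lie on chromosomes 18 and 16.

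B cell genes had a higher mean in the same lungs as H2-Eb1. The 11 matched B cell genes had a mean of 4.37 to 4.51 in tumor-bearing and 3.46 to 3.55 in control lungs, and of 3.20 to 3.47 and 3.25 to 3.38 in tumor-bearing and control livers. Of the 5 tested in lung, 4 had a higher mean, against 47% of all genes tested, and 1 passed, against 0.734% of them. That gene, Cd79b, a B cell receptor chain, read 7.80, 7.87 and 7.71 against 5.57, 5.62 and 5.73 in controls, 4.46-fold (limma adjusted p = 0.00163). Ms4a1, the CD20 gene, read 7.57, 8.37 and 7.06 against 2.91, 2.89 and 4.92 (limma adjusted p = 0.0601). Ms4a1 and Cd37, both higher in mean, did not pass the filter among the control organs. They entered the lung test through the tumor-bearing arrays. Ighm, the immunoglobulin M heavy chain gene, went the other way, with 7.26, 8.25 and 8.88 against 9.60, 8.38 and 7.46 (limma adjusted p = 0.863). Ms4a1, Cd37 and Ighm were named after their values were seen. Pax5, the defining B cell transcription factor, was at 2.04 to 2.05 on all 12 arrays. As for H2-Eb1, the lung groups did not overlap in the B cell mean, where 8.99% of genes tested lay higher on all tumor-bearing lungs. Within the tumor-bearing lungs that mean was 4.51, 4.46 and 4.37 in replicates 1, 2 and 3, where H2-Eb1 was lowest in replicate 1. Cd79b and Ms4a1 were highest in replicate 2, as was H2-Eb1, and Ighm was highest in replicate 3. The part of B cells in the H2-Eb1 result was not tested.

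Dendritic cell genes, 10 matched, had a mean of 5.39 to 5.57 in tumor-bearing and 5.45 to 5.57 in control lungs, which overlapped, and of 4.01 to 4.15 and 3.86 to 3.96 in tumor-bearing and control livers, which did not. None of the 5 tested in lung and 4 in liver passed, and Flt3, the defining growth factor receptor, was at 2.11 on every array. Monocyte and macrophage genes, 10 matched and all tested, had a mean of 8.34 to 8.59 in tumor-bearing and 8.18 to 8.26 in control lungs and of 8.64 to 8.84 and 8.28 to 8.80 in the livers, with 9 of 10 higher in lung, 8 of 10 higher in liver and none called. Their lung groups did not overlap either. The 7 matched Kupffer cell genes had a mean of 9.37 to 9.65 in tumor-bearing and 9.13 to 9.22 in control livers, with none of the 6 tested called, and these groups did not overlap. Among single genes tested, 8.99% lay higher on all tumor-bearing lungs and 10.4% on all tumor-bearing livers. No such share was counted for means of lists. A higher mean in tumor-bearing mice was found for 47% of genes tested in lung and 39.7% in liver. Tumor-bearing liver 1, low on H2-Aa, H2-Ab1 and Cd74, was not low on the Kupffer cell genes (9.54) or the dendritic cell genes (4.15). On the monocyte and macrophage genes it was the lowest tumor-bearing liver, at 8.64 against 8.84 and 8.82 in replicates 2 and 3. There it lay below control liver 2 (8.80) and above control livers 1 (8.36) and 3 (8.28). The part of these cells in the members' values was not tested.

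The remaining lists gave the state of the lung samples. Alveolar type II genes had a mean of 14.11 to 14.53 in tumor-bearing and 14.25 to 14.45 in control lungs, and alveolar macrophage genes one of 8.70 to 9.75 and 9.23 to 9.82, with none called. Neutrophil genes had a mean of 9.76 to 10.50 against 5.88 to 6.74, without overlap, where 8.99% of all genes tested lay higher on all tumor-bearing lungs. Of the 11 tested, 5 were called (Camp, Cd177, Ltf, Mmp8 and Ngp), against 0.734% of all genes tested. Camp, Cd177, Ltf and Mmp8 did not pass the filter among the control organs, so they entered the lung test through the tumor-bearing arrays. T and NK cell genes had a mean of 3.48 to 4.27 against 3.37 to 3.73. Cardiac muscle genes ranged from 5.75 to 8.72 against 3.96 to 9.80. None of these was tested for a part in the members' values.

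**Figure D4:**
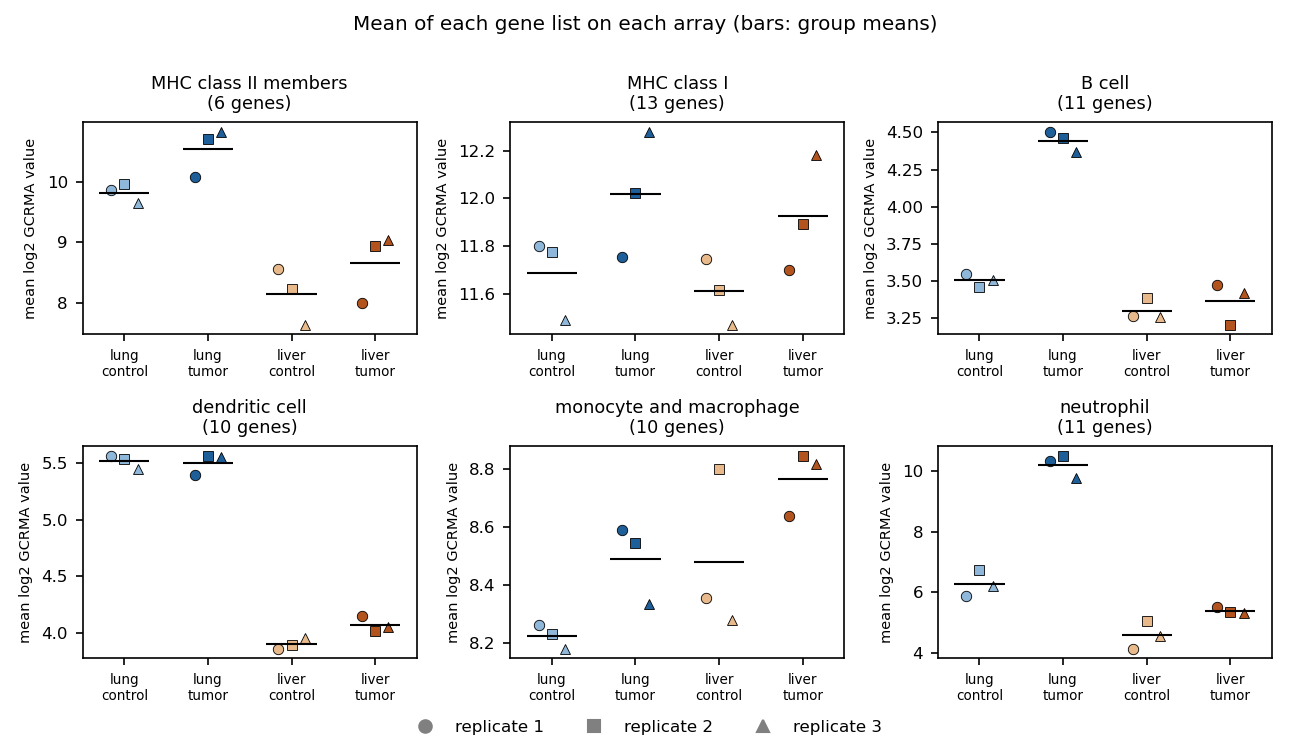
Mean log2 GCRMA value of 6 gene lists (vertical axis, a different range in each panel) on each of the 3 arrays of the 4 groups (horizontal axis), with bars at the group means and symbols for the replicate number. Tumor-bearing and control lungs did not overlap in the means of the class II members, the B cell genes (4.37 to 4.51 against 3.46 to 3.55), the monocyte and macrophage genes and the neutrophil genes, and overlapped in those of the dendritic cell and MHC class I genes.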

How the data were processed

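RNA of lung and liver was hybridised to Affymetrix MOE430A 2.0 arrays. The authors deposited log2 expression values per probe set, made with GCRMA, a method that subtracts a background modelled from each probe's bases and equalises array distributions. GCRMA and limma are named in the submitters' processing notes, with versions not given in the sources used here. Of 22626 probe sets, 20380 list 1 gene symbol, 691 several and 1555 none. Each of 12393 genes was represented by its probe set with the highest mean over the 12 arrays. A gene had to exceed 4 (log2) on 3 or more of the arrays in a fit, and was then tested with limma 3.58.1 in R 4.3.3 (lmFit and eBayes at their defaults), with Benjamini-Hochberg adjustment over all genes tested and a threshold of 0.05. Each adjusted p is from limma, and confidence intervals are at 95%. Lung and liver were fitted apart, and their difference as an interaction over all 12 arrays.

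The members and the 14 gene lists (168 genes, 140 matched) were chosen with earlier results of these data known. Named by rule were all members, list genes past the threshold, the largest rise and fall of each pathway list where none passed, and the 5 genes most like the members; other names are marked. Alternatives covered filter, probe set choice, scaling, eBayes options, array weights, floor, threshold, left-out arrays, all arrays in 1 fit and the replicate number as a block. Testing every listed probe set, those with several symbols included, was added after seeing the data. Promoter windows are from RefSeq.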

Additional observations from a re-analysis of the deposited data

Results flagged for a closer look

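H2-Eb1 passed the test of the difference between the organs: its difference between tumor-bearing and control mice was 1.08 greater in lung than in liver on the log2 scale (SE 0.152, limma interaction test, adjusted p = 0.0139). All 3 tumor-bearing lungs lay above all 3 control lungs. All 6 livers lay at a repeated value of the probe set, so no liver response could be read and a difference between the organs is not shown. These flat arrays also enter the spread of the test.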

How the results depend on the processing

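The 1 member called in lung, H2-Eb1, fell to 0 members without the filter on low values, with every probe set tested by itself, without the 2 lung arrays rich in hepatocyte transcripts, with every listed probe set tested (added after seeing the data), and with any 1 lung array left out (0 to 0). Its difference kept its direction, at 0.98 to 1.16, with limma adjusted p-values from 0.000602 (all 12 arrays in 1 fit, where the flat liver arrays enter the spread) to 0.326; without the filter, where 12393 genes were tested, it was 0.128. Liver had 0 members called under every alternative. The 1 call in the difference between organs held in each leave-one-out fit (1 to 1), but the flat liver arrays enter the spread there too. This does not show that the lung call was stable. The 4 calls between control lung and control liver held under every alternative (4 to 4 with an array left out). Ciita also passed between the control organs in 2 of 18 alternatives. With median centring H2-Eb1 passed there too, as lower in lung (-0.33, limma adjusted p = 0.0346).

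With the replicate number as a block, 0 members were called in lung (H2-Eb1 limma adjusted p = 0.205) and 0 in the difference between organs (0.0733), and over all genes the lung calls went from 58 to 1 and the liver calls from 144 to 0. Deviations of same-numbered arrays correlated at -0.36 to 0.28 between tumor-bearing and control. Between lung and liver, the pairing in the block for the difference between organs, they correlated at 0.024 to 0.086. The labels do not tie a number to a mouse, so the numbers were not taken as pairs.

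Directions turned in comparisons where a member was not called in the main fit. H2-Eb1 turned to 0.029 in liver after quantile normalization. Between the control organs H2-Eb1 turned, with the median of all genes, to -0.22 after that normalization and to -0.33 with median centring. H2-DMa turned in liver to -0.13 without tumor-bearing liver 3 and -0.15 without control liver 3, in a range of -0.15 to 1.42 with an array left out. Its difference between organs turned to -0.22 with array weights and -0.035 with values under 4 set to 4, and ran from -0.93 to 0.64 with an array left out. For H2-Ab1 that difference ran from -0.73 to 0.12 and for Cd74 from -0.41 to 0.043 with an array left out, turning without control liver 3. The causes were not tested. Over all genes, liver calls split 49 higher to 95 lower as deposited and 54 to 65 after quantile normalization. Signal near a repeated value limits H2-Eb1 in liver and control lung, and Ciita in liver.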
